A study of Homo sapiens with 6 samples.

Results

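The genes described here are those whose symbol is a CD number, such as CD14 or CD44. CD numbers are given to leukocyte surface molecules that sets of antibodies recognise, in the order in which they were characterised. The number therefore names a way of detection, and the genes behind it belong to many unrelated families: tetraspanins that organise membrane domains, receptors for microbial products, adhesion molecules, ligands that stimulate or restrain T cells, and chaperones of antigen presentation. On monocytes and on monocytic leukaemia cells such antigens are used to define the lineage and the stage of the cells, and several are targets of antibodies. A member was any gene whose symbol is CD, then digits, then at most 1 letter and at most 1 digit, leaving out CD33, CD38, CD48, CD79B, CD163 and CD276. Of 11363 genes in the table, 40 met this rule. The reference table of gene names holds 86 such symbols, pseudogenes included, and the other 46, among them CD34, CD40, CD59 and CD274, were not analysed here.

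RNA was sequenced from NOMO-1, an established human acute myeloid leukaemia cell line of monocytic type. The groups were 3 libraries of parental cells, labelled WT, and 3 libraries of cells labelled MSLN-KO, in which the gene of mesothelin, a GPI-anchored surface glycoprotein, was knocked out. No treatment or time is given for either group, and the labels do not say how the knockout was made, whether it is 1 clone, or whether the replicates were separate cultures. The p-values are thus set by how far these libraries spread, a spread that can be purely technical. Values are CPM, read counts per gene scaled to the size of the library after TMM normalization. The values of each column were whole multiples of a fixed step, within 0.01 of that step, which corresponds to between 23665824 and 30804446 reads per library in the listed genes if the step is 1 read. On that reading the lowest value of any member, that of CD14 in MSLN-KO replicate 1, was 93 reads.

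MSLN stood at 153.2, 122.9 and 106 CPM in WT and at 45.7, 46.9 and 45.3 CPM in MSLN-KO, lower in the direction of the labels. All 12 markers of monocytic leukaemia that were looked for, CD14 and CD68 among them, were listed, with summed levels of 16883 to 17587 CPM in WT and 7630 to 8063 CPM in MSLN-KO, most of it lysozyme (LYZ, 14540 against 6081 CPM). By gene, 6 of the 12 fell (50%, beside 23.3% of all genes). MPO went from 744.4 to 45.7 CPM (log2 change -4.00, the lowest of all listed genes). The others were LYZ (-1.26), CD14 (-1.24), CSF1R (-0.39), CD68 (-0.37) and ITGAM (-0.23). A further 3 rose (25%, near the 22.4% of all genes), namely FCGR1A (0.78), CEBPA (0.40) and KMT2A (0.29). The remaining 3 were not called (PTPRC, SPI1 and MLLT3). The median log2 change was -0.18. These genes were named after their values were seen. Of the markers of other cells, 1 of 9 for T and NK cells (NKG7), 0 of 6 for B cells, 1 of 8 for erythroid and megakaryocytic cells (ITGA2B) and 0 of 8 each for epithelial and mesothelial and for stromal and endothelial cells were listed. NKG7 ranged from 37.1 to 40.9 CPM in WT and from 29.3 to 34.8 CPM in MSLN-KO, and ITGA2B from 1.39 to 2.04 and from 6.72 to 7.42 CPM, so ITGA2B was under 4.9 CPM in every WT library. The part of these differences in the results was not tested. In bulk RNA, fewer cells of a type and less RNA per cell cannot be told apart.

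Promoter windows are shown for the members with the 2 largest rises, CD1D and CD101, and the 2 largest falls, CD14 and CD9, because motif matches are compared with the calls further on. Each runs 5′ to 3′ on the strand of the gene, from 250 bases before to 50 bases after the start in RefSeq (GRCh38.p14). They lie at chr1:158179697-158179996 (plus strand), chr1:117001510-117001809 (plus strand), chr5:140633126-140633425 (minus strand) and chr12:6199696-6199995 (plus strand). Capitals mark the matches to the motifs named with the results: GAGGAA, or its reverse complement, in each window, and in CD14 also TGAGTCA.
CD1D: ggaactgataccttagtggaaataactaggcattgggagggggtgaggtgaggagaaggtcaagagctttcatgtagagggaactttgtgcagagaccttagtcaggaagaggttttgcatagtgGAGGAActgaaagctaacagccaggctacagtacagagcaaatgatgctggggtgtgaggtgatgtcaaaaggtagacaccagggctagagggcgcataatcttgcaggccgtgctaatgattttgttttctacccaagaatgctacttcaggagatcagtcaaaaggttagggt
CD101: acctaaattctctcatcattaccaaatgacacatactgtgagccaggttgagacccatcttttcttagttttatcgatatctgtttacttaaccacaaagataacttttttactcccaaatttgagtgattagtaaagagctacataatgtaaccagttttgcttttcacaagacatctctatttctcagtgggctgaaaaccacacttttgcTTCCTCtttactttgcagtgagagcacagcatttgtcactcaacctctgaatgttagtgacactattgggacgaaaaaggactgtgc
CD14: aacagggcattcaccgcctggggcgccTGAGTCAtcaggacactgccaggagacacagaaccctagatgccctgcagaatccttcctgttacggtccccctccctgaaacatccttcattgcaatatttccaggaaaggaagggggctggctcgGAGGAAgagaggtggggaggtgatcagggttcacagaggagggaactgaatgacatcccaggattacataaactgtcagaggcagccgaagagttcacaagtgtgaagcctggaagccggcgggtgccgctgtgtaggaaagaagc
CD9: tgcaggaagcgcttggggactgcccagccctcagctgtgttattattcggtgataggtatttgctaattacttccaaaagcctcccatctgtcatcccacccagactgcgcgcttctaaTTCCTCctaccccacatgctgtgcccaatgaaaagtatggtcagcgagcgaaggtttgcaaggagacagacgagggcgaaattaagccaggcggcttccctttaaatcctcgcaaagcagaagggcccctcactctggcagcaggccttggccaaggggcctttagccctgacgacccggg
The GC content was 47.3% in the window of CD1D, 37.7% in CD101, 55.7% in CD14 and 55.3% in CD9.

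CD-numbered genes were more often lower than higher in the knockout, by modest amounts. Of the 40 listed members, 18 fell, 4 rose and 18 were not called (limma on log2(CPM + 1), Benjamini-Hochberg adjusted p under 0.05 over all 11363 genes). As a share, 45% of members were lower and 10% higher. Over all genes 45.7% were called, 23.3% lower and 22.4% higher. The median log2 change of the members was -0.18, against 0.01 over all genes. The 22 members called were also the 22 whose 3 MSLN-KO libraries all lay on one side of the 3 WT libraries, 18 below and 4 above. Over all genes the groups did not overlap in 54.7%, lower in 28.1% and higher in 26.6%. In size the changes were small: the ratio of mean CPM reached 1.5 in 2 of the members that rose (CD1D and CD101) and in 3 of those that fell (CD14, CD9 and CD36), and reached 2 only for CD1D and CD14. None of the 40 lies on chromosome 15, where 308 of 371 listed genes (83.0%) were called lower.

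**Figure D1:**
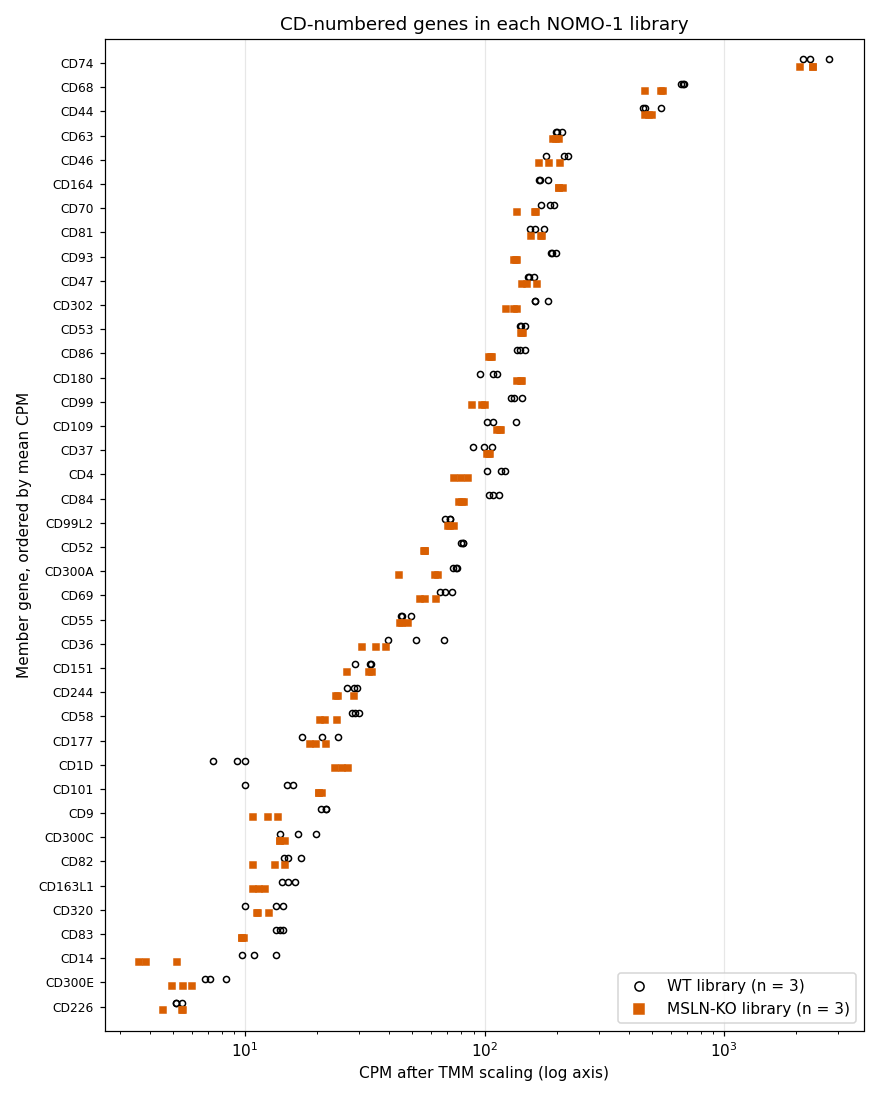
CPM of each of the 40 CD-numbered genes in every library on a log axis, ordered by the mean over 6 libraries; open circles are the 3 WT libraries and filled squares the 3 MSLN-KO libraries. CD74 stands alone at the top, and the squares of CD1D lie to the right and those of CD14 to the left of their circles.

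The members spanned a wide range of levels. Per kilobase of merged exons, the scale on which genes can be compared, CD74 was first in WT at 749.7 ± 100 CPM per kilobase (mean ± SD, n = 3). CD68 followed at 307.5 ± 4.35, CD70 at 120.5 ± 7.54, CD52 at 86.4 ± 0.789, CD63 at 77.4 ± 2.46 and CD53 at 66.6 ± 1.49 CPM per kilobase. These first 6 did not overlap in their mean ± SD. CD302 and CD86 (41.7 ± 3.03 and 41.3 ± 1.65 CPM per kilobase) did not differ beyond their spread. At the other end stood CD226 with 0.385 CPM per kilobase. In MSLN-KO the first 3 held the same ranks. CD1D went from rank 35 of 40 to 24 and CD180 from 20 to 12, whereas CD93 went from 10 to 17 and CD14 from 30 to 37. CD74 alone made up 36.0% ± 3.25 of the members' summed CPM in WT and 37.5% ± 1.28 in MSLN-KO (SD, n = 3). The sum over the other 39 members went from 4228 ± 95.6 CPM (WT) to 3764 ± 62.6 CPM (MSLN-KO).

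Among antigen-presenting members, the lipid-presenting molecule rose and the invariant chain did not pass the test. CD1D (ENSG00000158473.8, GRCh38 chromosome 1, 158179947 to 158184896) encodes an MHC class I-like protein that presents lipids to natural killer T cells. It was measured at 10.04, 7.31 and 9.23 CPM in WT and at 23.8, 25.4 and 26.9 CPM in MSLN-KO. Every knockout library was more than 2 times the highest WT library. The mean rose 2.86-fold, the largest rise of any member (log2 change 1.43, SE 0.11, limma adjusted p = 2.4e-07). CD74 (chromosome 5, 150401637 to 150412929), the invariant chain that escorts MHC class II molecules and also a receptor for the cytokine MIF, was at 2744, 2288 and 2129 CPM in WT and 2341, 2359 and 2076 CPM in MSLN-KO. The groups overlapped, and WT replicate 1 was the highest of the 6. Its log2 change was -0.07, with a 95% interval of -0.27 to 0.13 (adjusted p = 0.55). Of 14 listed partner genes, 2 rose (14.3%) and 5 fell (35.7%), beside 22.4% and 23.3% of all genes. They are class II pathway genes and the CD74 ligand MIF, which fell (log2 change -0.47). The 3 called with the largest change were the lysosomal protease CTSL (-0.68), the intramembrane protease SPPL2A, on chromosome 15 (-0.61), and RFXANK, a subunit of the factor that binds class II promoters (0.48). The class II chain gene HLA-DRA, chosen after its values were seen, was at 1281, 1182 and 1087 CPM in WT and 1054, 1044 and 1088 CPM in MSLN-KO and was not called (log2 change -0.15, limma adjusted p = 0.079).

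Receptors for microbial products and scavenger receptors had the largest share of falls among the lists of 5 or more. Of 7 listed members, 5 fell (CD14, CD36, CD93, CD302 and CD68) and 1 rose (CD180), with a median log2 change of -0.37. The shares are 71.4% lower and 14.3% higher, against 23.3% and 22.4% of all genes. CD14 (ENSG00000170458.15, chromosome 5, 140631728 to 140633701), the coreceptor that hands bacterial lipopolysaccharide to TLR4 and a defining marker of monocytes, was at 10.8, 9.67 and 13.5 CPM in WT. In MSLN-KO it was at 3.61, 3.84 and 5.18 CPM. The groups were well apart, and the mean was 2.69-fold lower (log2 change -1.24, SE 0.14, adjusted p = 1.1e-05), the largest fall of any member. It was a low gene in both groups: 2 of its MSLN-KO libraries lay under 4.9 CPM, the level that every listed gene reached in at least 3 libraries, so CD14 met it in WT and in 1 knockout library. CD180 (chromosome 5, 67179613 to 67196799), a TLR4-like receptor that works with LY86, moved the other way. It was at 108, 113 and 95.3 CPM in WT and 142, 143 and 137 CPM in MSLN-KO, a rise of 1.33-fold without overlap (log2 change 0.42, SE 0.06, adjusted p = 0.00020).

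Most called genes of Toll-like receptor sensing were lower. Of 12 listed genes of lipopolysaccharide and lipopeptide sensing, which include TLR1, TLR2 and TLR6, 5 fell (41.7%) and 1 rose (8.33%). Among all genes 23.3% fell and 22.4% rose. The median log2 change of the 12 was -0.20. TLR4, the signalling receptor served by CD14, went from 162.5 ± 4.18 to 84.0 ± 5.95 CPM (log2 change -0.95), TLR1, a lipopeptide receptor, changed by -0.46, and the kinase gene IRAK4 rose by 0.50. LY86, which encodes the partner protein of CD180, was chosen after its values were seen. It was at 146.9, 142.3 and 147.99 CPM in WT and 119.3, 118.7 and 126.5 CPM in MSLN-KO (log2 change -0.26, SE 0.05, adjusted p = 0.0014), so CD180 and LY86 changed in opposite directions. LY96, the corresponding partner of TLR4, had a log2 change of -0.25 that missed the threshold (limma adjusted p = 0.052), although its 3 knockout values (5.94, 5.42 and 5.498 CPM) all lay below its WT values (6.69, 7.43 and 6.57 CPM).

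CD36 (chromosome 7, 80369575 to 80679277), a scavenger receptor for oxidised lipoprotein and long-chain fatty acids, had the widest spread of any member in WT relative to its mean (coefficient of variation 26.6%), at 39.7, 51.9 and 67.9 CPM. In MSLN-KO it was at 30.8, 35.1 and 38.6 CPM. The lowest WT library was close to the highest knockout library. The log2 change was -0.57 (SE 0.15, adjusted p = 0.0064), and without WT replicate 3 it was -0.38 (adjusted p = 0.028). CD93 (chromosome 20, 23079349 to 23086340), a C-type lectin-like receptor of myeloid and endothelial cells, gave a tight contrast: 199, 190 and 192 CPM in WT against 136, 136 and 133 CPM in MSLN-KO. This was a 1.43-fold fall (log2 change -0.52, SE 0.05, adjusted p = 3.2e-06). CD68 (chromosome 17, 7579467 to 7582113), a lysosomal glycoprotein of macrophages, was at 680, 662 and 677 CPM in WT and 546, 558 and 466 CPM in MSLN-KO. All knockout libraries were lower, replicate 3 most so, and the mean fell 1.29-fold (log2 change -0.37, adjusted p = 0.00078). In GENCODE release 29, 81.7% of the exon bases of CD68 are shared with a processed transcript on the same strand that has a row of its own in the table, so the count of CD68 depends on how shared reads were assigned. CD302, a C-type lectin receptor, fell by 0.37 on the log2 scale. Of its exon bases, 58.8% are shared with MARCH7 on the opposite strand and 15.5% with the read-through gene LY75-CD302, and both of these are listed too. The vitamin B12 uptake receptor CD320 was not called (-0.09, 95% interval -0.35 to 0.17). CD163L1, a scavenger receptor that was on no role list, fell by 0.38 on the log2 scale.

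**Figure D2:**
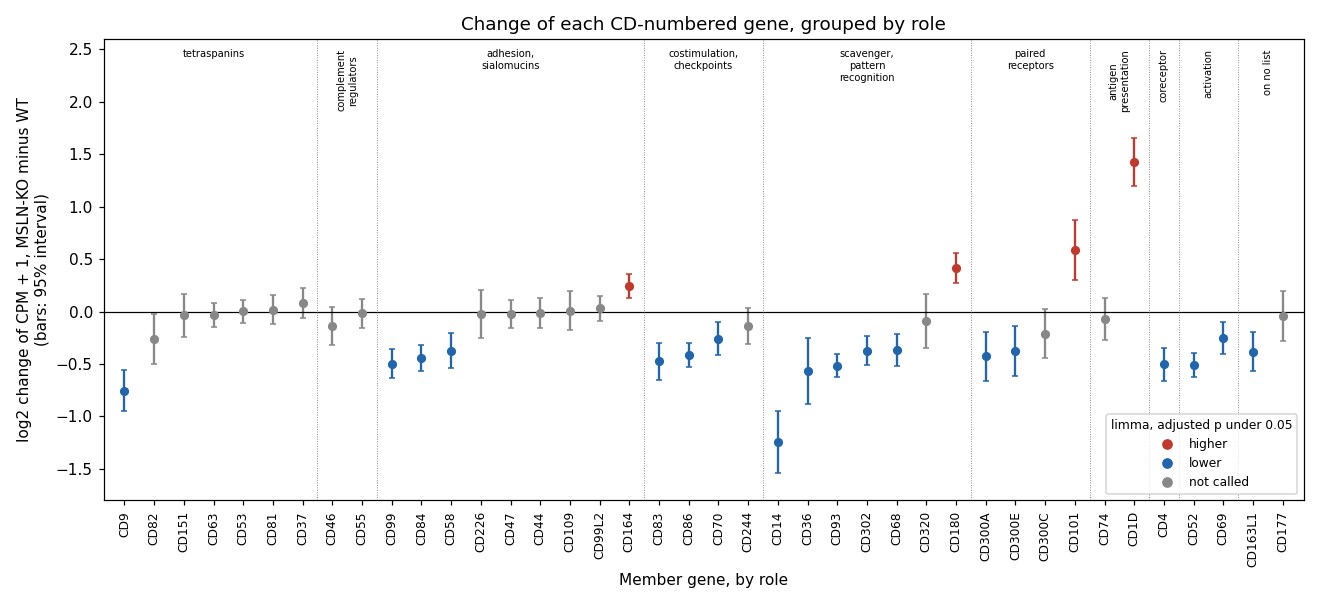
Log2 change of each CD-numbered gene (MSLN-KO minus WT on log2(CPM + 1)), with 95% intervals from the limma fit, grouped by role; red marks members called higher, blue lower and grey not called. Of the 7 tetraspanins only CD9 is blue, whereas 5 of 7 scavenger and pattern recognition members are blue, with CD14 lowest at -1.24 and CD1D highest at 1.43. Each gene is drawn once: CD151 with the tetraspanins and CD226 with the adhesion molecules, although the text counts each in another group too.

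The CD-numbered tetraspanins were mostly not called. Tetraspanins are membrane proteins with a shared fold that gather integrins and other receptors into domains. All 7 CD-numbered ones looked for were listed, 1 fell (CD9) and 6 were not called, with a median log2 change of -0.03. This is 14.3% lower and 0% higher, against 23.3% and 22.4% of all genes. CD9 (chromosome 12, 6199715 to 6238271), a tetraspanin of platelets, exosomes and many leukaemias, was at 21.7, 21.8 and 20.8 CPM in WT and 13.8, 12.5 and 10.8 CPM in MSLN-KO. The groups were far apart, with a 1.74-fold fall (log2 change -0.75, SE 0.09, adjusted p = 2.1e-05). CD63, a tetraspanin of late endosomes and exosomes, was at 198, 202 and 211 CPM in WT and 200, 204 and 194 CPM in MSLN-KO. CD81, part of the B cell coreceptor and of many tetraspanin complexes, was at 177, 155 and 163 CPM in WT and 172, 173 and 156 CPM in MSLN-KO. Both overlapped between groups, with 95% intervals of the log2 change from -0.14 to 0.08 for CD63 and from -0.12 to 0.16 for CD81. The leukocyte tetraspanins CD53 (log2 change 0.00, interval -0.11 to 0.11) and CD37 (0.08, interval -0.06 to 0.22) and the integrin-binding CD151 (-0.04, interval -0.24 to 0.17) were not called either. CD82, known as a metastasis suppressor, was the least certain, with a log2 change of -0.26, an interval of -0.50 to -0.02 and an adjusted p of 0.068 in limma. It was called without MSLN-KO replicate 1. Across the 9 other listed tetraspanin genes of the TSPAN series, 3 rose (33.3%) and 5 fell (55.6%). TSPAN2 (-0.78), TSPAN33 (-0.51) and TSPAN3, on chromosome 15 (-0.40), changed most. Of 12 partner proteins of tetraspanins, 5 rose (41.7%) and 3 fell (25%), beside 22.4% and 23.3% of all genes. The largest changes were those of CLDN1 (-3.24), IFITM1 (2.46) and the sheddase ADAM10, on chromosome 15 (-0.78). CLDN1 in MSLN-KO and IFITM1 in WT lay under 4.9 CPM in all 3 libraries, so each was listed only through the group where it was higher.

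The complement regulators that were listed did not pass the test. CD46 and CD55 protect host cells from complement deposited on their surface. CD46 (chromosome 1, 207752057 to 207795513), a cofactor for cleavage of C3b, was at 181, 214 and 223 CPM in WT and 185, 169 and 206 CPM in MSLN-KO. The groups overlapped because WT replicate 1 was low, and the log2 change was -0.14 (95% interval -0.32 to 0.04, adjusted p = 0.20). Without that library it was -0.23 with an adjusted p of 0.036 in limma. CD55, which speeds the decay of the C3 convertases, had a log2 change of -0.02 (interval -0.16 to 0.12). Of 9 listed complement and complement receptor genes, 2 rose (22.2%) and 3 fell (33.3%), beside 22.4% and 23.3% of all genes. C3AR1, the receptor of C3a, changed by -1.30, CFD (factor D) by 0.82 and CFP (properdin) by 0.55, with CR1 and VSIG4 also lower. C3AR1 was under 4.9 CPM in all 3 MSLN-KO libraries and was listed only through WT.

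Adhesion molecules and sialomucins changed in both directions or were not called. Of 10 listed, 3 fell (CD99, CD84 and CD58), 1 rose (CD164) and 6 were not called, with a median log2 change of -0.02. Over all genes 23.3% fell, 22.4% rose and 6166 of 11363 were not called, so uncalled members are not particular to this group. The 10 include CD151, also counted with the tetraspanins, and CD226, also counted with costimulation. CD44 (chromosome 11, 35138870 to 35232402), the hyaluronan receptor of leukaemic stem and progenitor cells, was the third member by CPM, at 470, 547 and 460 CPM in WT and 469, 501 and 486 CPM in MSLN-KO. Its groups overlapped entirely, and the 95% interval of its log2 change was -0.16 to 0.13. CD47 (chromosome 3, 108043094 to 108091862), the ligand that restrains phagocytosis through SIRPA, was at 151.3, 161 and 153 CPM in WT and 150, 143 and 166 CPM in MSLN-KO. Its interval was -0.16 to 0.11, and SIRPA, chosen after its values were seen, was not called either (log2 change -0.01, adjusted p = 0.92). Around CD44, 5 of 10 listed ligand, sheddase and linker genes fell and 1 rose, with MMP9 (-0.94), SPP1, which encodes the ligand osteopontin (-0.92), and ADAM10 as the largest. MMP9 was under 4.9 CPM in every MSLN-KO library and was listed only through WT. Around CD47, 3 of 8 fell (37.5%) and 2 rose (25%), beside 23.3% and 22.4% of all genes. The chaperone CALR (-1.05), the CD47 ligand THBS1, on chromosome 15 (-0.80), and LRP1 (0.65) changed most.

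CD99 (chromosome X, 2691133 to 2741309), an adhesion molecule of leukocyte migration that is abundant on leukaemic blasts, was at 130, 144 and 132 CPM in WT and 97.7, 100 and 89.1 CPM in MSLN-KO. Every knockout library was below every WT library, a 1.41-fold fall (log2 change -0.50, SE 0.06, adjusted p = 3.3e-05). Its relative CD99L2 had an interval of -0.09 to 0.15 and was not called. CD84 (chromosome 1, 160541095 to 160579516), a self-binding receptor of the SLAM family, was at 104, 115 and 109 CPM in WT and 82.1, 78.1 and 80.7 CPM in MSLN-KO. It fell 1.36-fold (log2 change -0.44, SE 0.06, adjusted p = 3.8e-05). CD58, the ligand of CD2 on T cells, fell by 0.37 on the log2 scale. CD164 (chromosome 6, 109366514 to 109382812), a sialomucin of haematopoietic progenitors, was at 169, 185 and 171 CPM in WT and 204, 205 and 212 CPM in MSLN-KO. Its rise was 1.18-fold without overlap (log2 change 0.24, SE 0.05, adjusted p = 0.0027), the smallest of the 4 rises. The GPI-anchored CD109 was not called, at 102, 136 and 108 CPM in WT and 116, 113 and 117 CPM in MSLN-KO. The wider range in WT came from replicate 2, and the difference in spread was not tested.

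Costimulatory members were lower or not called. Of 5 listed genes of costimulation and checkpoints, 3 fell (CD70, CD83 and CD86), 0 rose and 2 were not called. The lower share is 60%, against 23.3% of all genes. CD70 (chromosome 19, 6583183 to 6604103), the ligand of CD27 and an antibody target on leukaemic stem cells, was at 194, 172 and 188 CPM in WT and 163, 163 and 137 CPM in MSLN-KO. The log2 change was -0.26 (SE 0.07, adjusted p = 0.012), and without WT replicate 1 the call was lost (-0.22, limma adjusted p = 0.051, within a range of 0.0055 to 0.051 over the fits that left out 1 library). CD86, a ligand of CD28 and CTLA4, was at 136.9, 148.1 and 140.8 CPM in WT and 107, 104 and 106 CPM in MSLN-KO, a 1.34-fold fall (adjusted p = 3.4e-05). CD83 (chromosome 6, 14117256 to 14136918), a maturation marker of dendritic cells, was at 13.5, 14.1 and 14.4 CPM in WT and 9.67, 9.72 and 9.90 CPM in MSLN-KO. Its libraries agreed closely within each group, and it fell 1.43-fold (log2 change -0.47, adjusted p = 0.00040). CD244, a SLAM-family receptor of NK cells and monocytes (log2 change -0.14, interval -0.31 to 0.04), and the activating receptor CD226 (-0.02, interval -0.25 to 0.21) were not called. Among 10 listed genes of the tumour necrosis factor family, to which CD70 belongs, and its TRAF adaptors, 1 rose (10%) and 3 fell (30%). The shares over all genes are 22.4% and 23.3%. The receptor gene TNFRSF14 (0.94) rose, and TNFSF10 (-0.48), TNFSF13B (-0.33) and TNFRSF1B fell. TNFRSF14 was under 4.9 CPM in every WT library and was listed only through MSLN-KO.

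Among the paired immune receptors, CD300A and CD300E fell, CD101 rose and CD300C was not called. CD300A, CD300C and CD300E lie in this order on chromosome 17, with 56.3 and 63.7 kb between them. CD300A (74466399 to 74484796), an inhibitory receptor for phosphatidylserine and phosphatidylethanolamine, was at 73.6, 76.1 and 76.7 CPM in WT. In MSLN-KO it was at 63.7, 62.1 and 44.0 CPM, so replicate 3 stood well below the other knockout libraries. The log2 change was -0.43 (SE 0.11, adjusted p = 0.0065), and without that library it was -0.26 (adjusted p = 0.0037). CD300E, an activating receptor of monocytes, had a log2 change of -0.38 (adjusted p = 0.013), but it was not called when WT replicate 2 was left out (adjusted p = 0.055) or MSLN-KO replicate 2 (0.052). For CD300C the log2 change was -0.21 (interval -0.45 to 0.02). CD101 (chromosome 1, 117001750 to 117036476), an inhibitory receptor of myeloid cells and T cells, was at 14.9, 15.9 and 9.98 CPM in WT and 20.3, 20.4 and 20.9 CPM in MSLN-KO. It rose 1.51-fold (log2 change 0.59, SE 0.13, adjusted p = 0.0028), and WT replicate 3 was the lowest library. CD58, the nearest member on that chromosome at 430.7 kb, fell, with other genes such as PTGFRN (not called, named after its values were seen) between them.

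The remaining members were lymphoid or activation antigens that monocytic cells also carry, and neutrophil CD177. CD4 (chromosome 12, 6786858 to 6820808), the coreceptor for MHC class II on T cells that human monocytes express too, was at 117, 122 and 103 CPM in WT and 85.4, 80.1 and 74.8 CPM in MSLN-KO. It fell 1.42-fold without overlap (log2 change -0.50, SE 0.07, adjusted p = 9.8e-05). CD9, CD4 and CD163L1, which lie in this order on chromosome 12 with 548.6 and 525.9 kb between them, all fell. Other genes lie in those gaps, and one of them, PTPN6, rose (log2 change 0.36, named after its values were seen). CD52 (chromosome 1, 26317957 to 26320523), a short GPI-anchored glycopeptide of lymphocytes and monocytes and the target of alemtuzumab, was at 81.3, 79.9 and 81.2 CPM in WT. In MSLN-KO it was at 56.6, 55.9 and 56.6 CPM. The spread within each group was under 1% of the mean (0.913% in WT and 0.674% in MSLN-KO), and the fall was 1.43-fold (log2 change -0.51, SE 0.05, adjusted p = 6.0e-06). CD69, an early activation antigen, had a log2 change of -0.25 (adjusted p = 0.011), and its call was lost without MSLN-KO replicate 2 (0.053). CD177, a GPI-anchored neutrophil antigen on no role list, was not called (-0.04, interval -0.28 to 0.19). The name table holds pseudogenes of CD46, CD83, CD84, CD99 and CD177, and whether reads were shared with these copies was not tested.

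**Figure D3:**
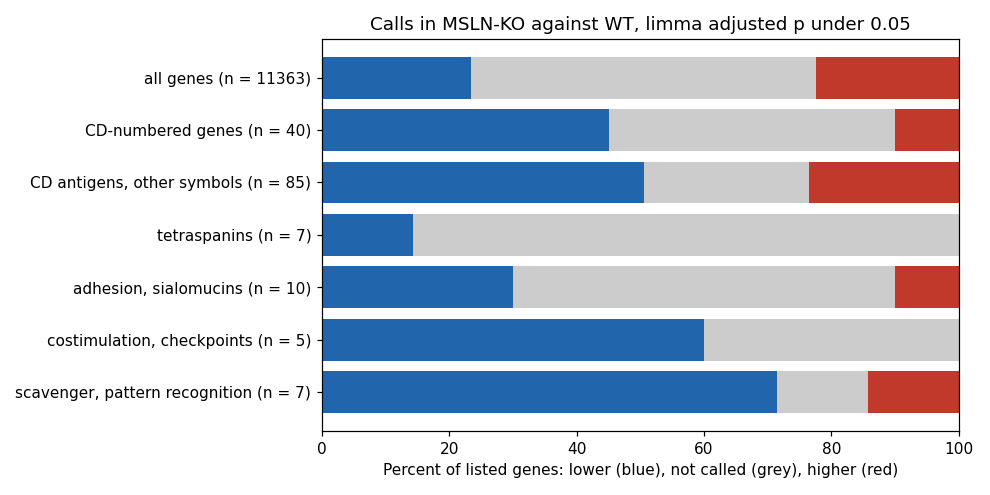
Percent of listed genes called lower (blue), not called (grey) and called higher (red) in MSLN-KO, for all 11363 genes, the 40 CD-numbered genes, 85 CD antigens known by other symbols, and 4 role groups of members. The blue share is 23.3% for all genes and 45% for the CD-numbered genes, and tetraspanins have the smallest blue share of the role groups drawn (1 of 7).

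The tilt toward lower levels was also present in CD antigens that go by other gene symbols. Of 85 such genes in the table, 43 fell (50.6%), 20 rose (23.5%) and 22 were not called. Over all genes 23.3% fell and 22.4% rose, so the share of rises was near that of all genes. The median log2 change of the 85 was -0.18, the same as the members to 2 decimals. This list was chosen with earlier results of these data known. Larger changes occurred there than among the members: ANPEP (CD13), on chromosome 15, changed by -3.21, CEACAM6 (CD66c) by -2.66 and PVR (CD155), a ligand of the receptors CD226 and TIGIT, by 1.85. CEACAM6 was under 4.9 CPM in every MSLN-KO library and was listed only through WT. The share of higher genes was 10% in the members and 23.5% in this list, and this difference was not tested. Among the members, calls did not require a high level. Of 17 members with a mean of at least 100 CPM, 6 fell and 2 rose, against 33.3% and 19.5% of all genes at that level. Of 12 between 20 and 100 CPM, 7 fell and 0 rose, against 23.1% and 20.7%. Of 11 under 20 CPM, 5 fell and 2 rose, against 18.3% and 26.6%. Of the 18 members that were not called, 10 had a 95% interval of the log2 change that lay within -0.25 to 0.25, while for the other 8 a change of that size was not excluded by the interval. The spread within groups was like that of other genes: the median coefficient of variation of the members was 6.18% in WT and 6.15% in MSLN-KO, against 6.15% and 5.60% over all genes.

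Motif matches in the promoter windows were counted by call. RefSeq windows were found for 29 of the 40 members (12 lower, 4 higher and 13 not called), and 5 motifs were searched on both strands. GAGGAA, a core that ETS factors such as PU.1 can bind, was in 7 of 12 lower, 3 of 4 higher and 2 of 13 uncalled members, and in 27.9% of all 35116 windows of that length. In the windows printed above it began 125 bases before the start of CD1D, 37 before CD101, 96 before CD14 and 131 before CD9. GGGCGG, the GC box that SP1 binds, went the other way, found in 10 of 13 uncalled, 3 of 12 lower and 0 of 4 higher members, and in 45% of all windows. TTGCNNAA, of the C/EBP type, was in 5 of 29 members (10.5% of all windows), TGANTCA, of the AP-1 type, in 6 (7.71%), and TATAAA, the TATA box, in 3, all of them lower (11.5%). Of the 68 matches in member windows, 0 overlapped a match of another motif. The counts are small and were not tested, and a match does not show that a factor binds there.

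**Figure D4:**
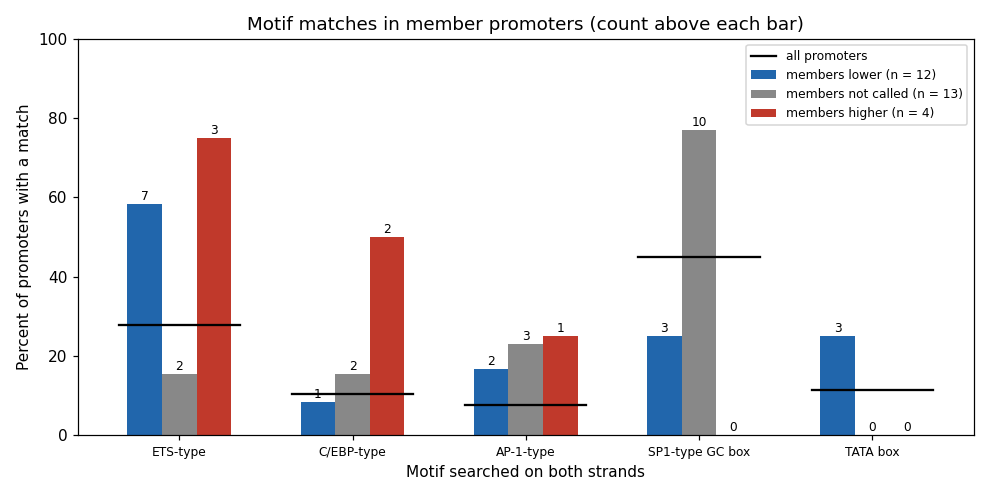
Percent of RefSeq promoter windows with at least 1 match to each of 5 motifs, for members called lower (12), not called (13) and higher (4) in MSLN-KO, with the number of windows above each bar; black lines give the share over all 35116 windows. The ETS-type bar is lowest and the GC box bar highest for the members that were not called.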

How the data were processed

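The submitters' processing notes name STAR, featureCounts, edgeR and the build GRCh38/hg38, with versions, annotation release and strand setting not given in the sources used here, so reads of overlapping antisense genes may not have been told apart. The authors' deposited table holds CPM after TMM normalization for 11363 genes, each at 4.9 CPM or more in at least 3 libraries. Of these, 11354 were matched to symbols and 11314 to GENCODE release 29 (1-based coordinates, merged exon lengths). The members and gene lists were chosen with earlier results of these data known.

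MSLN-KO was compared with WT by limma 3.58.1 in R 4.3.3 (lmFit, eBayes with trend) on log2(CPM + 1) over the whole table, without covariates, two-sided and with no further filter. This scale understates the log2 change of low genes, and each fold is a ratio of group means in CPM. The fit was tested on simulated data. Values in full were given for the 10 members highest in CPM, up to 10 largest rises and 10 largest falls among called members, and the 3 highest uncalled members; CD53, CD86, CD109 and other members given beside them were added after their values were seen. In each other list the 3 called genes with the largest change were named, and TNFRSF1B, CR1 and VSIG4 were added afterwards. If the step of each column is 1 read, no 2 replicates were alike within sampling noise (chi-square over its degrees of freedom, 2.71 to 14.8). Alternatives changed the pseudocount (0.1, 5), the minimum mean (5, 10 CPM), the scaling, and the trend, added a replicate block, or dropped 1 library at a time.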

Additional observations from a re-analysis of the deposited data

How the results depend on the processing

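The 4 rises were called in all 14 alternatives, and the falls numbered 16 to 19. Of the 22 members called, 18 were called in every alternative. CD70, CD69 and CD300E lost their calls when single libraries were left out, CD46, CD82, CD244 and CD300C each gained a call in 1 such fit, and CD14 and CD300E, with CD226, were not tested at a minimum mean of 10 CPM. The median log2 change of the members was -0.15 with a pseudocount of 5, -0.14 at that minimum, -0.14 with columns rescaled to equal totals, and -0.22 to -0.17 without single libraries. With that rescaling, the uncalled CD44, CD47 and CD63 turned to 0.0182, 0.0104 and 0.00139, and the median over all genes was 0.04. Without single libraries the log2 change ran from -0.0616 to 0.0632 for CD44, -0.0812 to 0.0228 for CD47, -0.152 to 0.0310 for CD74 and -0.0239 to 0.0682 for CD81, all uncalled. The cause was not tested. With the replicate number as a block, 4 members were higher and 18 lower, as without it, and 4946 of all genes were called against 5197. Same-numbered libraries did not deviate together throughout (r across genes 0.19, -0.17 and -0.09), and not every library correlated best with its own number. The values thus show no pairing by number. Whether libraries were prepared in pairs cannot be told from 3 per group. The count test on whole reads was not run, because a check of the unit did not accept the reads implied by the steps as recovered counts. The read numbers given above, and the comparison of replicates with sampling noise, therefore hold only if the step is 1 read.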
